A study of Mus musculus with 12 samples.

Results

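The genes described here are 200 long non-coding RNAs (lncRNAs) of mouse brown fat that carry only a provisional name, of the Gm type (a predicted gene) or the Rik type (a RIKEN cDNA clone). Of the 61210 rows of the count table, 8515 were typed as lncRNA or noncoding, had an Ensembl identifier and bore such a name. From these the 200 with the highest mean CPM (a library's counts scaled to a common total) over 12 libraries were selected, so the genes were chosen by their CPM over all groups, and their abundance follows from the choice and is no finding. Among them, 111 had Gm names and 89 Rik names. All 200 passed the filter on low counts and were tested.

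Total RNA was sequenced from the iBAT of wild type C57BL/6N mice aged 20 weeks, with 3 libraries in each of 4 groups. Mice of the NCD RT group stayed on chow (NCD) at room temperature (RT, 22 °C in the column names). Mice of the NCD cold group ate the same diet and spent 24 h at 4 °C. HFD RT mice switched to high-fat diet (HFD) at 8 weeks of age, 12 weeks before sampling, and HFD cold mice received both treatments. All groups were wild type, so no group carried a transgene or deletion, and chow was the food of every mouse until week 8. The labels do not state that each library was 1 mouse, and p-values here measure the spread between libraries of a group. The design text calls the tissue inguinal and the study's methods call it interscapular.

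lncRNAs are transcripts beyond the size of the small RNA classes without a known protein product. Many start beside the promoter of a coding gene and are transcribed away from it (divergent), others run across a coding gene on the opposite strand (antisense), and some are the primary transcripts from which microRNAs or small nucleolar RNAs are cut. Brown adipocytes burn lipid to make heat through the uncoupling protein Ucp1, and cold activates them through noradrenaline, cAMP and the transcription factors that follow.

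The markers listed for brown adipocytes were plentiful, but the list is not of brown adipocytes alone. The study treats Pparg, Adipoq and Fabp4 as markers common to adipocytes, and Elovl3 as one common to adipose tissue. Mean Fabp4 in NCD RT was 5748 CPM, above Ucp1. Their 9 genes summed to between 12860 and 15520 CPM in the NCD RT libraries, 29120 to 32920 in NCD cold, 13170 to 16690 in HFD RT and 21020 to 26070 in HFD cold. The sum does not stand for each gene. In the cold on NCD 4 of the 9 were called higher (Ucp1, Dio2, Elovl3 and Fabp4), and mean Ucp1 alone went from 4203 to 16360 CPM. In the cold on HFD 3 were called higher (Ucp1, Dio2 and Elovl3) and 1, Adipoq, lower. All 4 epithelial markers together stayed at or below 0.746 CPM. The 8 skeletal muscle markers, summed, ranged from 2476 to 15140 CPM in NCD RT, 1068 to 8280 in NCD cold, 1741 to 15940 in HFD RT and 520.5 to 4869 in HFD cold. The highest of the 12 libraries was replicate 3 of HFD RT. Mean Myh4, a fast muscle myosin, was 2306 CPM in NCD RT against 1205 in NCD cold, and 2253 in HFD RT against 660.6 in HFD cold. None of the 8 passed a contrast, and the part of muscle in the values below was not tested. The 5 endothelial markers summed to between 473.2 and 595.0 CPM in NCD RT and 682.7 and 769.9 in NCD cold. On HFD they summed to between 663.6 and 916.4 CPM at RT and 885.7 and 1023 in the cold. Among them Pecam1 was called higher in the cold on NCD and on HFD at RT, and the others passed no contrast. The part of endothelial cells was not tested either. Libraries held 15136861 to 46740702 counts, the 4 libraries of batch 2 (replicate 3 of each group) being the deepest. The same replicate 3 of HFD RT stood apart for lncRNAs. It was the highest of the 12 libraries for 76 of the 200 genes (38.0%), against 40.4% of 3233 other lncRNA and noncoding rows and 11.3% of 13196 coding genes.

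Levels fell off steeply with rank. Gm26917 had a mean of 4193 CPM, which was 64.0% of the sum over the 200, followed by 1700020I14Rik with 275.0 CPM and Gm26905 with 107.6 CPM. The other genes of the 12 highest by CPM were Gm9899, Gm32817, 4632427E13Rik, Gm48765, A430046D13Rik, Gm44386, Gm37494, A530053G22Rik and Gm10032, between 67.2 and 33.8 CPM. The median over the 200 was 6.37 CPM, 25 genes exceeded 20 CPM and 76 lay below 5 CPM. Just inside the limit were Gm16183, Gm17116 and 5430416N02Rik, with 3.01, 2.99 and 2.98 CPM, and just outside Gm45188, Gm36445 and 2810403D21Rik, with 2.97, 2.96 and 2.96 CPM.

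**Figure D1:**
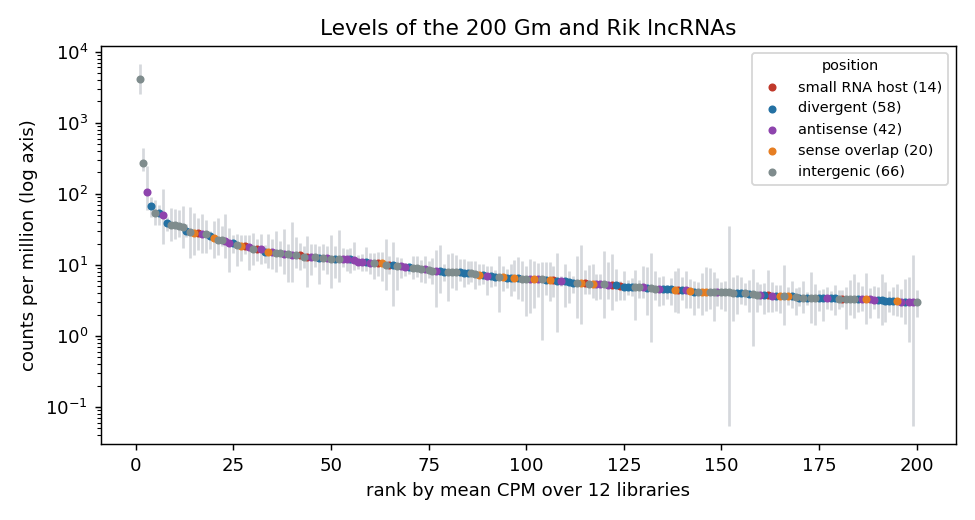
Mean CPM of each of the 200 lncRNAs against its rank, on a log axis, coloured by position relative to coding genes. Grey lines span the lowest to the highest of the 12 libraries. Gm26917 at 4193 CPM stands far above the rest, and most genes lie between 3 and 20 CPM.

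CPM counts reads and not molecules, so longer transcripts gather more. Per kilobase of exon, Gm26917 still led with 1259 CPM per kb, followed by Gm44386 with 85.9 (429 exon bases), Gm15241 with 37.7 (474 exon bases) and 1700020I14Rik with 33.1 (8306 exon bases). Gm26917 lies on chromosome 17 (GRCm38, 39843013 to 39846341, plus strand) as 1 exon of 3329 bases, a locus that holds sequence of the ribosomal RNA repeat, so its counts cannot be told apart from ribosomal RNA left after depletion. Its level ranged from 2844 to 7123 CPM and it passed none of the 4 pairwise contrasts. Of 13 satellite repeat transcripts looked up, Gm26870 alone met the selection rule and was ranked. The others had a row in the count table but did not meet the rule, so their absence says nothing about their level. Gm26870 was among the 200, with a mean of 15.1 CPM, and it too passed no pairwise contrast. The locus 1810058I24Rik (16.9 CPM), although typed as lncRNA, is known to encode a short mitochondrial protein.

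By the GENCODE M21 annotation 66 of the 200 were intergenic, 58 divergent (start within 1000 bases of a coding start on the other strand), 42 antisense, 20 overlapped a coding gene on the same strand and 14 hosted a microRNA or small nucleolar RNA. Exon length had a median of 2705 bases and reached 52997, and 6 genes had a single exon block. Annotation M21 typed 3 of them as protein coding (Gm47283, 9930104L06Rik and 4931428L18Rik) and 3 as transcribed pseudogenes (1810014B01Rik, Gm10033 and Gm18190).

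Promoters are shown for 6 genes on which the comparisons below turn, each with 250 bases before and 50 after the RefSeq start (GRCm38.p6), written along the gene. Gm16062 rose and Gm10687 fell in the cold on both diets, Gm10851 and 2310069B03Rik rose in the cold on NCD, 6530402F18Rik was higher on HFD at both temperatures, and Gm32468 had the largest fall on HFD at RT. Capitals mark TGACGTCA, the cAMP response element bound by CREB, or AGGTCA, the element bound by nuclear receptors, searched on both strands.
Gm16062, chr11:59809830-59810129, plus strand: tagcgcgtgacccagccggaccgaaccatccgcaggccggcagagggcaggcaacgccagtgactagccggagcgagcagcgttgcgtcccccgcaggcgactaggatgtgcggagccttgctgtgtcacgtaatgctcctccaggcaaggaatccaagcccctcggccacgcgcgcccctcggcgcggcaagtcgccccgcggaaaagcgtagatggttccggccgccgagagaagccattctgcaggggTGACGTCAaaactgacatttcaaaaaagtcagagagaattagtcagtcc
Gm10687, chr9:44134436-44134735, minus strand: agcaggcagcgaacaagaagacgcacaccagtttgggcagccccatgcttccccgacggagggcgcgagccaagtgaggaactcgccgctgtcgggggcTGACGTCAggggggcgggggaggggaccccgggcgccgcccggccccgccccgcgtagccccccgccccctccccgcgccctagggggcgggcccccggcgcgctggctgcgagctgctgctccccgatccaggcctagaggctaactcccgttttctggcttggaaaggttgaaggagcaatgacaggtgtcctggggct
Gm10851, chr2:11521392-11521691, plus strand: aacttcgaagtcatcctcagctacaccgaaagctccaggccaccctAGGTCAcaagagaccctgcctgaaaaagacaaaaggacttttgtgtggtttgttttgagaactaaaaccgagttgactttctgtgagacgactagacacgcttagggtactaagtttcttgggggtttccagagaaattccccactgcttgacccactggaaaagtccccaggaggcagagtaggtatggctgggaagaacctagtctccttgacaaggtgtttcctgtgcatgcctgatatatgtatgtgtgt
Gm32468, chr10:93083986-93084285, plus strand: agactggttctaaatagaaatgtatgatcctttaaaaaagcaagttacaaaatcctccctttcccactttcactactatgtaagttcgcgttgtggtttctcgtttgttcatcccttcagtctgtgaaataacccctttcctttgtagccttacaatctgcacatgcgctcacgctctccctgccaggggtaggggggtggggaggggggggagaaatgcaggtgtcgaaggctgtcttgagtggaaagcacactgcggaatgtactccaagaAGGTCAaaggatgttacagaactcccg
2310069B03Rik, chr6:82881804-82882103, minus strand: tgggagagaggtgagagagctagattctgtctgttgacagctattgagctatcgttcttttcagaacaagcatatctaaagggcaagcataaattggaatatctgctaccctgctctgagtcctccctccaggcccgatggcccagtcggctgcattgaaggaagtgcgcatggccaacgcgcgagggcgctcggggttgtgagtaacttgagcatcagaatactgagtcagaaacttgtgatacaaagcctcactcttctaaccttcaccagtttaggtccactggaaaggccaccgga
6530402F18Rik, chr2:29252944-29253243, minus strand: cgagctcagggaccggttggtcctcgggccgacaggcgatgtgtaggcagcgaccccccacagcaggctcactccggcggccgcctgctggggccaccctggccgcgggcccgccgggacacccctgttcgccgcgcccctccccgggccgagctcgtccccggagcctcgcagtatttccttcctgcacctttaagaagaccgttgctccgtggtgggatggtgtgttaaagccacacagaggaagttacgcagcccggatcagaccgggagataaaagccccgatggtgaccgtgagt
In Gm16062 the TGACGTCA began 1 base after the start, and in Gm10687 it began 151 bases before it. By RefSeq, Gm16062 starts 41 bases from Flcn and Gm10687 173 bases from Mcam. Both windows thus lie beside the start of a coding gene, and the motif cannot be assigned to the lncRNA alone. On the gene's own strand AGGTCA began 204 bases before the start of Gm10851 and 23 bases after that of Gm32468. The windows of 2310069B03Rik and 6530402F18Rik held 0 matches to these motifs. A RefSeq start within 100 bases of the M21 start was found for 64 of the 200 genes. TGACGTCA occurred in 6 of these 64 windows (9.38%) and in 1.79% of 32851 windows of all RefSeq genes. The genes were C030037D09Rik, 1300002E11Rik, Gm16062, Gm10687, 1500026H17Rik and 6030443J06Rik. Some of the 64 windows lie beside coding starts, and the share over coding promoters alone is not given here. AGGTCA occurred in 9 of the 64 (14.1%) and in 16.3% of all windows, and the E-box CACGTG in 3 (4.69%) and in 7.15%. The motifs are distinct words and none contains another. These matches describe the letters in a window and do not mark bound sites.

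Cold on NCD compared NCD cold with NCD RT. Gm16062, Gm47593, Gm47595, Gm10851, Gm10032 and 2310069B03Rik rose, and A530020G20Rik, Gm10687 and 1700087I21Rik fell. Of the 200 lncRNAs 17 passed the test (adjusted p under 0.05 and absolute log2 fold change over 0.5), 9 higher and 8 lower, beside a background of 6.27% of 16737 genes tested (3.72% higher and 2.55% lower). This was 8.5% of the 200, against 3.06% of the other lncRNA and noncoding rows and 7.06% of coding genes. The median log2 fold change over the 200 was -0.01, the same as over all genes. In bulk tissue, fewer cells of a type and less RNA per cell cannot be told apart.

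Gm16062 had the largest rise among those that passed. It is a gene of 2 exon blocks on chromosome 11 (59810080 to 59818491, plus strand) that starts 64 bases from the start of Flcn on the other strand. Flcn encodes folliculin, a regulator of mTORC1 and of the thermogenic program of adipocytes. Gm16062 read 1.62, 2.499 and 1.69 CPM in NCD RT and 7.22, 10.95 and 10.4 in NCD cold. It read 1.35, 1.05 and 2.34 in HFD RT and 8.01, 9.64 and 12.9 in HFD cold. Every cold library was above every RT library. The log2 fold change was 2.31 ± 0.32 (SE, n = 3 against 3, adjusted p = 0.00217 by edgeR's quasi-likelihood test) on NCD and 2.65 ± 0.32 (adjusted p = 0.00101) on HFD. Flcn itself rose on NCD, from 85.7 ± 9.33 to 154.0 ± 20.98 CPM (mean ± SD, n = 3; log2 fold change 0.85 ± 0.16, adjusted p = 0.0107), and did not pass on HFD, at 0.48 ± 0.16 (adjusted p = 0.0768).

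Gm47593 and Gm47595 lie next to each other on chromosome 10 (61496600 to 61499601 and 61494917 to 61496290, minus strand), antisense within Lrrc20, a gene of a leucine-rich repeat protein. Gm47593 read 9.89, 8.14 and 9.16 CPM in NCD RT against 20.3, 19.2 and 19.5 in NCD cold, and 8.37, 7.58 and 7.48 in HFD RT against 15.3, 14.3 and 10.2 in HFD cold. Gm47595 read 5.47, 4.36 and 5.66 CPM against 8.54, 9.48 and 11.8 on NCD, and 3.48, 3.71 and 3.98 against 6.48, 6.74 and 7.13 on HFD. Both rose on both diets without overlap between the groups. Gm47593 changed by 1.12 ± 0.15 (log2, adjusted p = 0.00217) on NCD and 0.76 ± 0.15 (adjusted p = 0.0100) on HFD, and Gm47595 by 0.94 ± 0.16 and 0.86 ± 0.17. Lrrc20 rose on NCD (32.9 ± 8.62 to 68.5 ± 8.83 CPM, log2 fold change 1.06 ± 0.22, adjusted p = 0.0155) and did not pass on HFD (0.63 ± 0.22, adjusted p = 0.0869). The sources used here do not state whether strand was used in counting, so reads from a lncRNA and an overlapping coding gene may be shared.

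Of the 9 that rose on NCD, 6 did not pass on HFD, led by 2310069B03Rik, Gm10032 and Gm10851. 2310069B03Rik (chromosome 6, 82877864 to 82881853, minus strand, intergenic) read 20.4, 23.8 and 21.6 CPM in NCD RT and 60.8, 45.4 and 72.4 in NCD cold, a rise of 1.44 ± 0.27 (log2, adjusted p = 0.00984). On HFD it read 30.2, 24.9 and 14.8 CPM at RT and 18.8, 14 and 10.9 in the cold, overlapping groups with a difference of -0.68 ± 0.27 (adjusted p = 0.126). Gm10851 (chromosome 2, 11521706 to 11530836, plus strand), antisense to Pfkfb3, read 8.96, 10.2 and 10.2 CPM at RT and 24.9, 24.8 and 25.99 in the cold on NCD, against 20.7, 22.9 and 18.7 and then 28.9, 27.6 and 18.2 on HFD. Pfkfb3 makes fructose-2,6-bisphosphate, an activator of glycolysis. The NCD groups of Gm10851 were far apart (1.37 ± 0.17, adjusted p = 0.00103) and the HFD groups overlapped (0.26 ± 0.16, adjusted p = 0.322). Gm10032 (intergenic, chromosome 14) read 20.6, 28.4 and 18.4 CPM and then 42.5, 65.3 and 74.5 on NCD, a rise of 1.44 ± 0.27 (adjusted p = 0.0101), and between 20.1 and 35.0 CPM in all HFD libraries. The difference between diets is given with the interaction below.

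The smaller rises on NCD included Gm9899, B430212C06Rik and Gm15241. Gm9899 overlaps and starts 449 bases from Kcnk3, a potassium channel of brown adipocytes, and read 52.8, 53.5 and 55.9 CPM at RT and 78.1, 67.6 and 94.4 in the cold (0.57 ± 0.15, adjusted p = 0.0430). B430212C06Rik starts 499 bases from Cidea, a lipid droplet protein, and read 9.83, 10.2 and 6.91 CPM against 14.1, 19.1 and 15.6 (0.86 ± 0.23, adjusted p = 0.0433). Cidea itself had means of 1353 and 1817 CPM and did not pass (0.43 ± 0.15, adjusted p = 0.104). Gm15241, antisense to Adgrg2, rose by 0.87 ± 0.23 (adjusted p = 0.0444). The groups of all 3 did not overlap on NCD, and none passed on HFD.

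Of the 8 lncRNAs that fell on NCD, all 8 also fell on HFD. A530020G20Rik (chromosome 3, 121531619 to 121536206, plus strand), divergent from Slc44a3, a choline transporter-like gene, read 11.8, 18.2 and 19.6 CPM in NCD RT and 2.98, 3.36 and 6.75 in NCD cold, and 14.8, 19.7 and 11.6 against 2.61, 4.93 and 3.87 on HFD. It fell by 1.90 ± 0.35 (log2, adjusted p = 0.00970) and by 2.01 ± 0.35 (adjusted p = 0.00549), without overlap on either diet. Slc44a3 fell with it, by 1.02 ± 0.25 (adjusted p = 0.0326) on NCD and by 0.98 ± 0.25 (adjusted p = 0.0304) on HFD. Gm10687 (chromosome 9, 44122186 to 44134485, minus strand) starts 16 bases from Mcam, a cell adhesion molecule of the vessel wall. It read 9.70, 7.21 and 7.59 CPM against 3.61, 3.88 and 2.79 on NCD, and 10.1, 8.21 and 7.54 against 3.15, 3.92 and 2.98 on HFD. All cold libraries were lower than all RT libraries, with log2 fold changes of -1.26 ± 0.20 (adjusted p = 0.00495) and -1.36 ± 0.20 (adjusted p = 0.00215). Mcam fell by 0.82 ± 0.21 on NCD (adjusted p = 0.0375) and did not pass on HFD (-0.49 ± 0.21, adjusted p = 0.158).

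The other 6 that fell on both diets were 9530026P05Rik, 1700087I21Rik, Gm3289, B930095G15Rik, 1600020E01Rik and 9330159M07Rik. 9530026P05Rik runs antisense to Adamts9, a secreted metalloprotease, and fell by 1.43 ± 0.39 (adjusted p = 0.0499) on NCD, where Adamts9 rose by 0.94 ± 0.22 (adjusted p = 0.0266). 1700087I21Rik read 7.84, 8.84 and 9.04 CPM against 4.93, 2.47 and 4.498 on NCD, and 5.73, 5.49 and 6.04 against 1.58, 2.25 and 1.47 on HFD, falls of 1.11 ± 0.25 and 1.71 ± 0.26 without overlap. Gm3289 fell from 8.03, 5.12 and 6.69 to 4.87, 2.65 and 2.39 CPM on NCD and from 13.0, 12.1 and 10.9 to 4.91, 4.67 and 4.20 on HFD. The remaining 3 changed by -0.63 to -0.79 on NCD and by -0.89 to -1.11 on HFD.

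**Figure D2:**
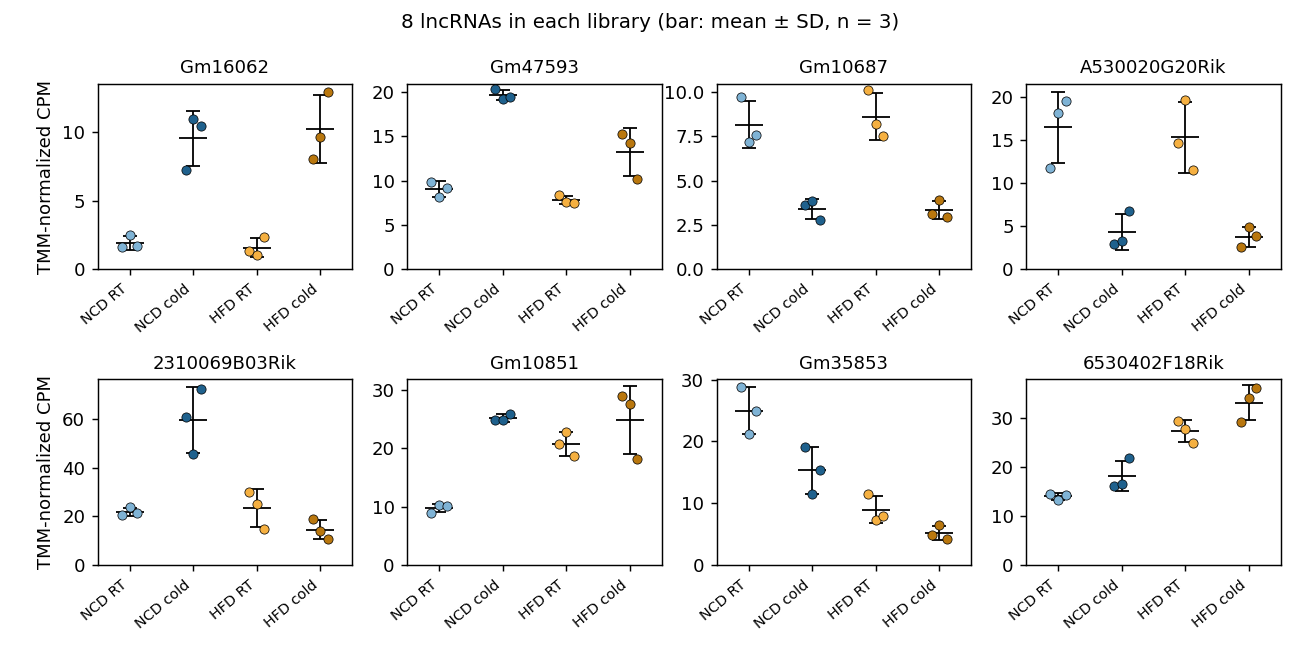
TMM-normalized CPM of 8 lncRNAs in each library, with points for replicates 1 to 3 from left to right and bars for the mean ± SD (n = 3). Gm16062 and Gm47593 are higher, and Gm10687 and A530020G20Rik lower, in the cold on both diets, whereas 2310069B03Rik is high in NCD cold, at 45.4 to 72.4 CPM, and at most 30.2 CPM elsewhere.

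Leaving out each library in turn gave 8 to 19 calls on NCD. The count was 8 without NCD RT replicate 3, 9 and 10 without NCD RT replicates 1 and 2, and 11 without NCD cold replicate 2. A total of 7 genes passed in all 12 of these fits: Gm16062, Gm10851, Gm47593, Gm47595, 2310069B03Rik, A530020G20Rik and Gm10687. The other 10 missed the threshold in at least 1 fit, and 9530026P05Rik and B930095G15Rik passed in only 2 of the 12. Replicates 1 and 2 alone, which form batch 1, gave 7 calls.

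Cold on HFD compared HFD cold with HFD RT, and the changes were mostly downward. Of the 200, 26 passed, 5 higher and 21 lower, beside a background of 9.58% of all genes tested (5.39% higher and 4.19% lower). The median over the 200 was -0.28 on the log2 scale, against -0.04 over all genes, 0.02 over coding genes and -0.42 over other lncRNA and noncoding rows. Without HFD RT replicate 3, the library that was so often the highest, the median over the 200 was -0.14 and 18 genes passed. On both diets 3 of the 200 rose (Gm16062, Gm47593 and Gm47595) and 8 fell. Over the 200 genes the log2 fold changes on the diets, which share no library, had a Pearson r of 0.74. The r over all genes tested is not given here, so this value does not single out the 200. It includes Gm12840, with 68.0% of its CPM in HFD cold replicate 1.

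**Figure D3:**
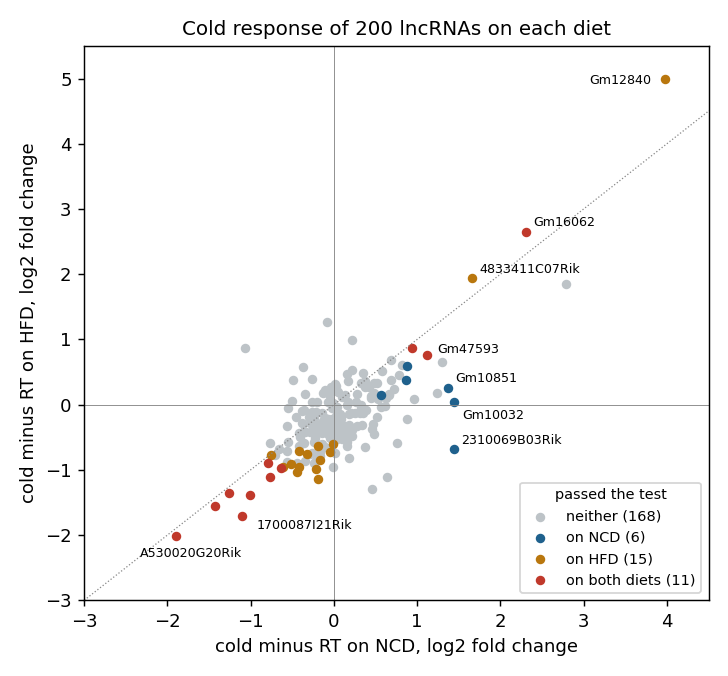
Log2 fold change in the cold on NCD (horizontal) and on HFD (vertical) of the 200 lncRNAs, coloured by the diet on which each passed the test, with a dotted line of equal change. The 11 red points passed on both diets, 3 upward and 8 downward, and 2310069B03Rik, Gm10032 and Gm10851 lie well to the right of the line.

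The rises on HFD included 4833411C07Rik and Gm12840. 4833411C07Rik (chromosome 8, 10899922 to 10903893, plus strand) read 0.709, 1.99 and 1.78 CPM at RT and 5.13, 8.01 and 4.38 in the cold, a rise of 1.94 ± 0.46 (adjusted p = 0.0213). It missed the threshold on NCD at 1.66 ± 0.46 (adjusted p = 0.0506), where it read 1.06, 2.79 and 1.81 and then 4.01, 9.12 and 4.81 without overlap. Its nearest coding gene, Irs2, an insulin receptor substrate that starts 108536 bases away, rose on both diets by 2.09 ± 0.45 and 1.85 ± 0.45. Gm12840 read 0.193, 0.261 and 0.508 CPM at RT and 30.6, 0.572 and 2.52 in HFD cold, so that replicate 1 of HFD cold held 68.0% of its CPM summed over all 12 libraries. Its log2 fold change of 4.995 ± 1.41 (adjusted p = 0.0428) was 2.24 without that library and no longer passed, and it also missed the threshold without any 1 of the RT libraries of either diet. Blocking on replicate number inside each diet gave 3.72, which did not pass either.

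Among the 13 genes that fell on HFD and did not pass on NCD was Gm15417, antisense to Zbtb7b, a transcription factor of the thermogenic program. It read 14.4, 12.8 and 11.8 CPM at RT and 6.57, 7.09 and 6.41 in the cold, a fall of 0.96 ± 0.12 (adjusted p = 0.00109), while Zbtb7b changed by 0.15 ± 0.12 (adjusted p = 0.450). On NCD Gm15417 read 13.6, 14.2 and 12.4 and then 10.6, 10 and 9.59 CPM, which did not overlap and did not pass. E330011O21Rik (divergent from Cxadr), Gm13558 and Gm10516 fell by 1.15 ± 0.27, 1.04 ± 0.28 and 0.91 ± 0.19. Gm44386 and Gm37494, both among the 12 highest by CPM, fell by 0.85 ± 0.20 and 0.71 ± 0.18. Gm47578 fell by 0.98 ± 0.28, with 49.8 CPM in HFD RT replicate 3 against 24.1 and 21.6 in the other HFD RT libraries, and its log2 fold change without that library was -0.50.

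Over the 12 fits with a library left out, 14 to 27 genes passed on HFD, 11 of them in every fit: Gm16062, Gm47593, Gm47595, A530020G20Rik, 1700087I21Rik, Gm3289, Gm10687, 1600020E01Rik, 9330159M07Rik, Gm15417 and Gm10516. The other 15 missed the threshold in at least 1 fit. The count was 14 without HFD cold replicate 3, 16 without HFD RT replicate 2 and 17 without HFD cold replicate 1. Batch 1 alone gave 8 calls.

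HFD at RT compared HFD RT with NCD RT. 6530402F18Rik and Gm10851 were higher on HFD, and Gm35853 and Gm32468 lower. Of the 200, 10 passed, 7 higher and 3 lower, beside a background of 2.09% of all genes tested (0.992% higher and 1.09% lower). The median over the 200 was 0.22 (log2), against 0.03 over all genes and 0.38 over other lncRNA and noncoding rows, and it was 0.15 without HFD RT replicate 3.

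6530402F18Rik (chromosome 2, 29245107 to 29253006, minus strand) overlaps Ntng2, which encodes the axon guidance protein netrin-G2, on the same strand. In the M21 annotation the starts of both genes lie 1 base apart, so reads may be shared between them. 6530402F18Rik read 14.6, 13.3 and 14.4 CPM in NCD RT and 29.4, 27.9 and 24.9 in HFD RT. In the cold it read 16.3, 16.6 and 21.9 on NCD and 29.2, 34.2 and 36.1 on HFD. All HFD libraries were above all NCD libraries, and the rises were 0.96 ± 0.14 (adjusted p = 0.00632) at RT and 0.86 ± 0.14 (adjusted p = 0.00641) in the cold. Ntng2, with group means of 4.67 to 9.48 CPM, differed by 0.83 ± 0.23 at RT and did not pass (adjusted p = 0.0936).

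Gm35853 (chromosome 15, 101322888 to 101405834, plus strand), the host of miR-1941, was lower on HFD at both temperatures. It read 28.8, 21.2 and 25.0 CPM in NCD RT against 11.5, 7.37 and 8.02 in HFD RT, and 19.1, 11.5 and 15.5 in NCD cold against 4.86, 6.52 and 4.31 in HFD cold. The groups did not overlap, with log2 fold changes of -1.49 ± 0.24 (adjusted p = 0.00959) and -1.56 ± 0.24 (adjusted p = 0.00537). 1500026H17Rik, which starts 86 bases from Scyl2, was also lower at both temperatures, by 0.79 ± 0.18 and 0.94 ± 0.18 on the log2 scale. With a library left out, 1500026H17Rik passed in 2 of the 12 fits at RT and in 8 in the cold. At RT it also missed the threshold with batch as a term. Gm32468 (chromosome 10, 93084206 to 93093727, plus strand) read 8.83, 12.0 and 11.7 CPM in NCD RT and 2.13, 1.52 and 1.19 in HFD RT, a fall of 2.78 ± 0.55 (adjusted p = 0.0275). In the cold it was not called, with 12.0, 7.65 and 11.1 CPM on NCD and 0.765, 5.99 and 4.59 on HFD.

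Gm10851, the antisense RNA of Pfkfb3, was higher on HFD at RT by 1.08 ± 0.16 (adjusted p = 0.00786), with the values given above. The other rises were Gm33699 (2.11 ± 0.48, adjusted p = 0.0489), Gm48397 (1.89 ± 0.43), Gm32200 (0.95 ± 0.19), Gm48764 (0.91 ± 0.17) and A530053G22Rik (0.69 ± 0.14). Gm33699 and Gm48397 had their highest HFD RT value in replicate 3, at 9.60 and 14.99 CPM, and neither passed without it, at 1.36 and 1.51. In the fits with a library left out 3 to 10 genes passed, and 6530402F18Rik and Gm10851 in all 12, while the other 8 missed the threshold at least once. Gm35853 did so without HFD RT replicate 2. The count was 3 without any of the NCD RT replicates or HFD RT replicate 2, 5 without HFD RT replicate 3 and 6 without HFD cold replicate 2, and batch 1 alone gave 2. HFD at RT shares its libraries with the cold contrasts.

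HFD in the cold compared HFD cold with NCD cold, and most genes that passed were lower on HFD. Of the 200, 17 passed, 3 higher and 14 lower, beside a background of 4.75% of all genes tested (2.06% higher and 2.69% lower). The median over the 200 was 0.00, against 0.02 over all genes.

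2310069B03Rik had the largest difference, at 60.8, 45.4 and 72.4 CPM in NCD cold and 18.8, 14 and 10.9 in HFD cold (-2.04 ± 0.27, adjusted p = 0.00262). Gm6277, the host of miR-1901 beside Cables1, read 5.79, 7.36 and 10.1 CPM against 1.85, 3.17 and 1.93 (-1.75 ± 0.29, adjusted p = 0.00845). Neither pair of groups overlapped. Gm35853 (above), 1700087I21Rik (-1.18 ± 0.25), Gm10032 (-1.15 ± 0.27), 1500026H17Rik, Gm42067 (-0.88 ± 0.23) and 4930481A15Rik (-0.79 ± 0.16) completed the 8 largest falls. The rises were 1700047G03Rik (1.75 ± 0.35, adjusted p = 0.0194), 6530402F18Rik and Gm20559 (0.66 ± 0.15). 1700047G03Rik read 2.01, 1.53 and 2.39 CPM in NCD cold and 8.64, 4.80 and 6.67 in HFD cold.

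With a library left out 4 to 22 genes passed, and 2310069B03Rik, Gm6277, Gm35853 and 6530402F18Rik did so in all 12 fits, while the other 13 missed the threshold at least once. The count was 4 without HFD cold replicate 1 or HFD cold replicate 3, 5 without NCD cold replicate 1 and 6 without NCD cold replicate 3, and batch 1 alone gave 2. Over the 4 pairwise contrasts 48 of the 200 (24.0%) passed at least once, beside 15.5% of all genes tested. The groups of every such call did not overlap, which also held for 99.6% of all 3796 calls over all genes. Called or not, groups did not overlap for 27.8% of all genes in the cold on NCD, 30.3% in the cold on HFD, 25.9% on HFD at RT and 25.2% on HFD in the cold.

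**Figure D4:**
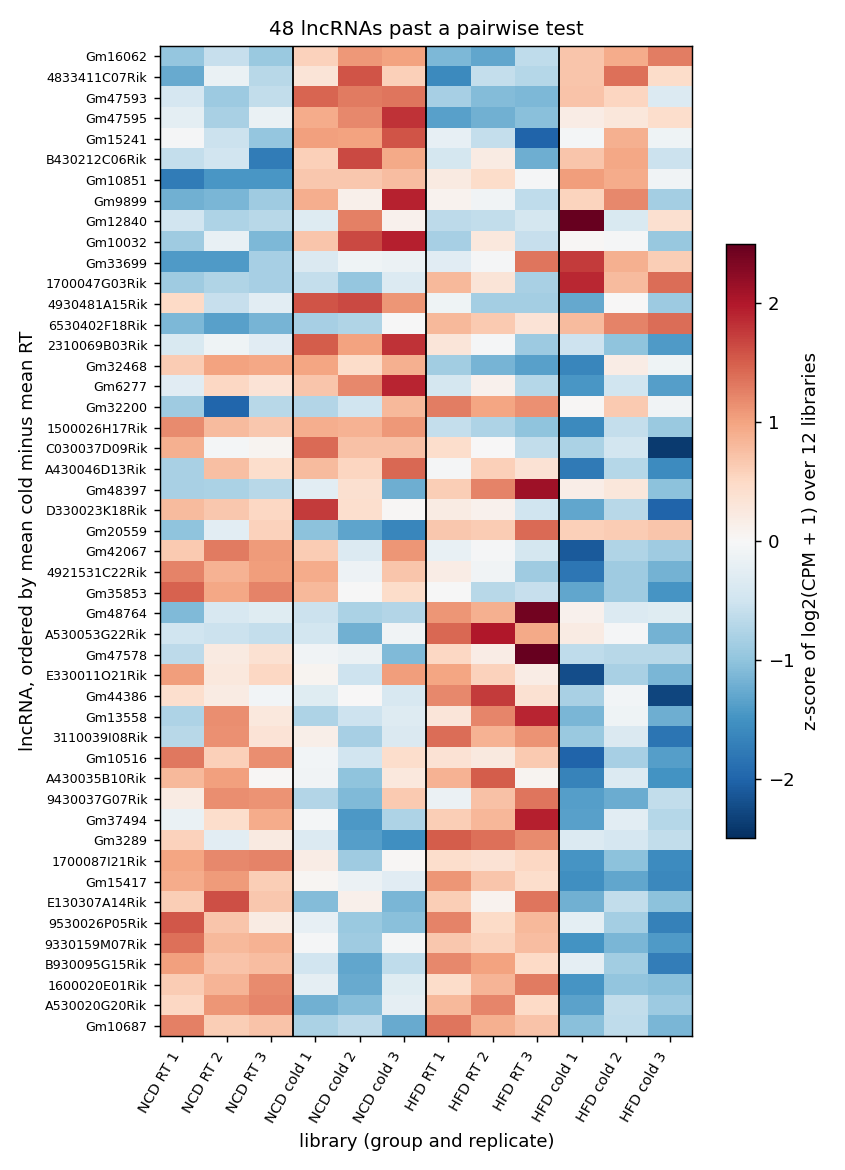
Standardised log2(CPM + 1) of the 48 lncRNAs that passed a pairwise test, in each of the 12 libraries, ordered by mean cold minus mean RT. Red is above and blue below the gene's own mean over the libraries. Gm16062 at the top is red in all 6 cold libraries, Gm10687 at the bottom is blue in them, and 6530402F18Rik is red in all 6 HFD libraries.

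The test for any difference among the 4 groups, at an adjusted p under 0.001, called 10 of the 200, beside a background of 2.55% of all genes. In order of p these were Gm16062 (adjusted p = 0.000309), Gm35853, 6530402F18Rik, Gm47593, 9330159M07Rik, Gm10687, Gm15417, 1700087I21Rik, Gm10851 and Gm47595 (adjusted p = 0.000864). With a library left out 0 to 4 passed, and the count fell below the 10 by over 1.5 times whichever library was left out.

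The interaction of diet and temperature (cold on HFD minus cold on NCD) called 0 of the 200 and 0.0% of all genes by edgeR. At an unadjusted p under 0.05 there were 22 of the 200, beside 1091 of all 16737 genes tested (6.52%). DESeq2 called 2 of the 200, and its count over all genes is not given here. The differences nearest to the threshold included 2310069B03Rik (-2.12 ± 0.38, adjusted p = 0.197) and Gm10851 (-1.11 ± 0.23, adjusted p = 0.339). The median over the 200 was -0.29, against -0.03 over all genes and -0.33 over other lncRNA and noncoding rows. Without HFD RT replicate 3 the median over the 200 was -0.16. The contrast of batch 2 with batch 1 called 2, 1 higher and 1 lower, beside a background of 1.43% of all genes (0.221% higher and 1.21% lower). Gm26917 was higher in batch 2 by 0.69 ± 0.14 (log2, adjusted p = 0.0424) and 1810058I24Rik lower by 0.55 ± 0.12 (adjusted p = 0.0432). They passed in 2 and 1 of the 12 fits with a library left out, in that order, and those fits called 0 to 1 gene.

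A coding neighbour was tested for 163 of the 200 lncRNAs. Of the 14 called on NCD in the cold with a tested neighbour, 7 had a neighbour that was called in the same direction and 1, 9530026P05Rik beside Adamts9, a neighbour called in the other. The call of 9530026P05Rik passed in 2 of the 12 fits with a library left out. In the divergent class 4 of 5 had a neighbour called the same way (Gm16062 and Flcn, Gm9899 and Kcnk3, A530020G20Rik and Slc44a3, Gm10687 and Mcam). In the antisense class 3 of 5 did, although Gm47593 and Gm47595 share the neighbour Lrrc20. In all, 21 of the 163 neighbours were called in the cold on NCD, 16 in the cold on HFD, 3 for HFD at RT and 5 for HFD in the cold. Of all coding genes tested, 7.06%, 10.4%, 2.3% and 5.41% were called, in the same order. Over the 56 divergent pairs the log2 fold changes in the cold on NCD had a Pearson r of 0.63, over the 32 antisense pairs of 0.12, over the 45 intergenic of 0.36, over the 19 with sense overlap of 0.54, over the 11 small RNA hosts of 0.80 and over all 163 of 0.30. On HFD, in the same order, r was 0.41, 0.21, 0.27, 0.38, -0.15 and 0.27, and 4 of 21 called lncRNAs had a neighbour called in the same direction. For HFD at RT 0 of 9 and for HFD in the cold 1 of 15 did, with r over all pairs of 0.11 and 0.35. Pairs share libraries and, where genes overlap, possibly reads.

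**Figure D5:**
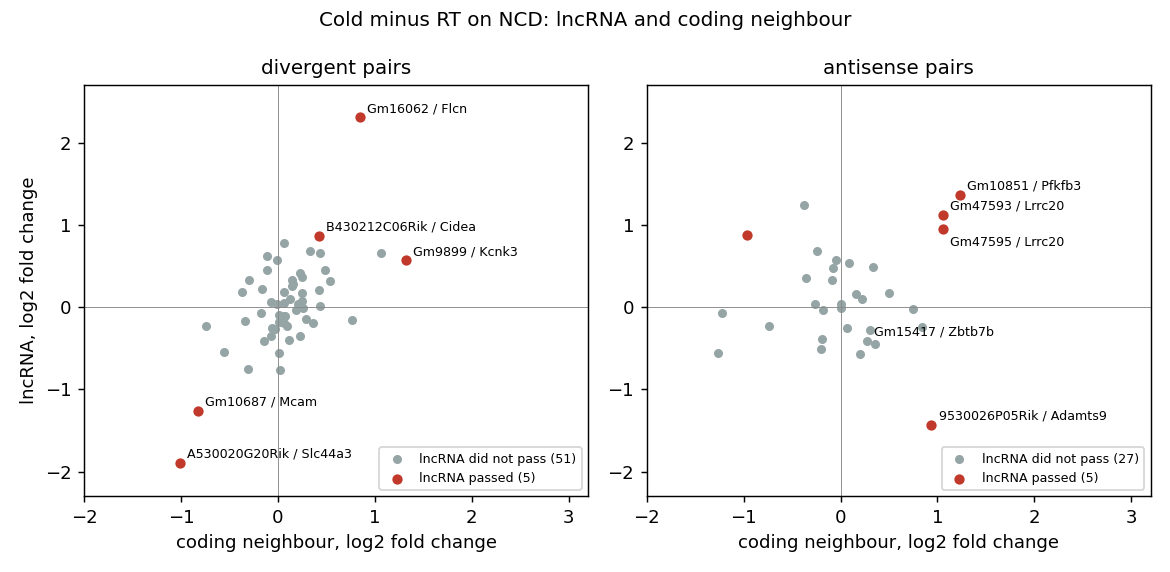
Log2 fold change in the cold on NCD of divergent (left) and antisense (right) lncRNAs against that of their coding neighbours, with lncRNAs that passed the test in red. Of the labelled divergent pairs all lie in the upper right or lower left, while 9530026P05Rik fell where Adamts9 rose.

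Of the 14 small RNA hosts, 10 held a microRNA and 5 a small nucleolar RNA. The mature microRNAs were not measured in these libraries, and only the host transcripts were. The mature sequences of the hosts described here, from RefSeq (GRCm38.p6), show which share a seed, bases 2 to 8 in capitals, the part that pairs with target messages.
miR-29b-3p: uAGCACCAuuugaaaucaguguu
miR-29c-3p: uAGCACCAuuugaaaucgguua
let-7a-5p: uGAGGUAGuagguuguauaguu
let-7d-5p: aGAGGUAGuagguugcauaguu
let-7f-5p: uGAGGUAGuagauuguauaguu
miR-100-5p: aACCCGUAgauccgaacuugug
miR-125b-5p: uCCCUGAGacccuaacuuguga
miR-1941-5p: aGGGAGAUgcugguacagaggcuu
The miR-29 pair, both from A330023F24Rik, have the same seed, as do the let-7 microRNAs of 6720427I07Rik. 3110039I08Rik is the host of miR-100, miR-125b and let-7a-2, whose hairpin also holds the let-7a-5p sequence, so both hosts have the let-7 seed. The seeds of miR-100, miR-125b and miR-1941 (Gm35853) differ from these and from each other. A330023F24Rik read 22.5 ± 3.30 CPM in NCD RT, 21.8 ± 5.83 in NCD cold, 31.6 ± 11.5 in HFD RT and 33.2 ± 7.45 in HFD cold (mean ± SD, n = 3), groups that overlapped in all 4 contrasts, none of which it passed. 6720427I07Rik changed by at most 0.30 ± 0.16 on the log2 scale, a fall in the cold on HFD that did not pass (adjusted p = 0.263). 3110039I08Rik fell in the cold on HFD, from 13.0, 11.7 and 12.3 CPM to 8.06, 9.07 and 6.67 (-0.63 ± 0.17, adjusted p = 0.0319), and passed in 6 of the 12 fits with a library left out. Among the 14 hosts 1 fell in the cold on NCD (background 2.55%) and 4 on HFD (background 4.19%; 9330159M07Rik, 9430037G07Rik, A430035B10Rik and 3110039I08Rik), and 0 rose. On HFD at RT 1 was lower (background 1.09%) and in the cold 3 were lower (background 2.69%), namely Gm35853, Gm6277 and 9330159M07Rik. The row that merges Gm28730 with C430049B03Rik, whose locus lies beside the miR-322 and miR-503 cluster on the X chromosome, had 3.48 CPM and passed no contrast.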

How the data were processed

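Total RNA depleted of ribosomal RNA was sequenced from 12 iBAT libraries. The authors trimmed reads with cutadapt, ran salmon on a transcript set joining GENCODE M22 and RNAcentral 5 (GRCm38), and deposited estimated counts summed by gene, given as whole numbers and neither normalized nor pooled over replicates. Whether strand was used is not given in the sources used here. Libraries held 15136861 to 46740702 counts, which limits precision for the genes of low rank. Groups and batches (replicates 1 and 2 against replicate 3) followed the labels.

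The 200 genes and the lists were chosen with earlier results of these data known. Positions came from GENCODE M21 (GRCm38), in which all 200 were matched by Ensembl identifier, and promoter and microRNA sequences from RefSeq (GRCm38.p6). The position of a gene was taken in the order small RNA host, divergent, antisense, sense overlap and intergenic, and its neighbour was the coding gene that overlapped it or started nearest.

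Genes with enough counts by filterByExpr (minimum count 10) were kept, 16737 in all. They were normalized with TMM and fitted by quasi-likelihood in edgeR 4.0.16 (R 4.3.3) with 1 mean per group. P-values were adjusted by Benjamini-Hochberg over all genes tested. Pairwise and batch contrasts needed an adjusted p under 0.05 together with a log2 fold change beyond 0.5 either way, the 4-group test an adjusted p under 0.001 and the interaction under 0.05. Levels per library are TMM-normalized CPM, and ranks use CPM of the raw totals. The procedure was tested on simulated data.

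Named genes were the 12 highest by CPM, the 8 largest rises and falls that passed each pairwise contrast, the 10 smallest p-values of the 4-group test, the 3 genes on each side of the abundance limit, genes with most of their CPM in 1 library, those called between batches, repeat, microRNA host, imprinted and small protein loci, and Gm15551. Other genes named were chosen after their values were seen. Alternatives were DESeq2 1.42.0, its size factors, no filter, a mean of at least 10 counts, no minimum fold change, batch or replicate number as a term, batch 1 alone, only the 6 libraries compared and each library left out. Replicate number as a block inside each diet was added after seeing the data. The reason was that same-numbered libraries correlated within NCD (0.219 to 0.456) and within HFD (0.155 to 0.386). Across diets their correlations had both signs, from -0.215 to 0.365.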

Additional observations from a re-analysis of the deposited data

Results flagged for a closer look

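For 2 of the 200 lncRNAs the cold response differed between the diets by a test of the difference itself in DESeq2, and not in edgeR. For 2310069B03Rik the log2 fold change in the cold on HFD minus that on NCD was -2.11 ± 0.38 (SE, adjusted p = 4.11e-05) by DESeq2 and -2.12 ± 0.38 (adjusted p = 0.197) by edgeR's quasi-likelihood test. It rose from 20.4 to 23.8 CPM at RT to 45.4 to 72.4 CPM in the cold on NCD, and was at 14.8 to 30.2 CPM and 10.9 to 18.8 CPM on HFD. For Gm10851, antisense to Pfkfb3, the difference was -1.09 ± 0.26 (adjusted p = 0.0101) by DESeq2 and -1.11 ± 0.23 (adjusted p = 0.339) by edgeR. Pfkfb3 had log2 fold changes in the cold of 1.23 ± 0.22 on NCD and -0.08 ± 0.22 on HFD.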

How the results depend on the processing

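The counts of the 200 that passed were within 1.5 times of those reported under DESeq2's size factors, a mean of at least 10 counts, no minimum fold change and batch as a term, in each comparison these were run for. The DESeq2 test called more genes: 28 for cold on NCD, 40 for cold on HFD, 21 for HFD at RT, 32 for HFD in the cold, 41 for the 4 groups, 2 for the interaction and 6 for batch. Without the filter on counts 22 passed for the 4 groups, 1 for the interaction and 4 for batch. Batch 1 alone, with 2 libraries a group, gave 7, 8, 2 and 2 for the pairwise contrasts in that order and 0 for the 4 groups. With only the 6 libraries compared, 11 passed for cold on HFD and 3 for HFD in the cold. The cause of these differences was not tested, beyond the fewer libraries of the last pair. The shares over all genes under these settings are not given here, so the counts do not single out the 200. With each library left out, 8 to 19 passed for cold on NCD, 14 to 27 for cold on HFD, 3 to 10 for HFD at RT, 4 to 22 for HFD in the cold, 0 to 4 for the 4 groups, 0 for the interaction and 0 to 1 for batch.

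Same-numbered libraries correlated within a diet, but the labels do not state that they were paired. Libraries of different numbers also correlated across diets, at 0.418 for NCD cold replicate 2 with HFD RT replicate 3. Both had the highest Acta1, a skeletal muscle marker, of their groups (2038 and 3384 CPM). The part of muscle in these correlations was not tested. With replicate number as a block inside each diet 22 passed for cold on NCD, 33 for cold on HFD and 0 for the interaction. Gm12840 was the 1 call lost. With the replicate block across all groups 21, 30, 9 and 19 passed for the pairwise contrasts and 4 for the 4 groups.

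No change that passed a contrast reversed its direction under any alternative. The selection itself kept 192 of the 200 by median CPM, all but 2 by mean TMM-normalized CPM and 142 by CPM per kilobase of exon. An unadjusted p under 0.05 was found for 54 of the 200 for cold on NCD (27.0%, beside 21.9% of all genes tested) and for 73 for cold on HFD (36.5%, beside 27.5%).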

Other observations

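Gm15551, the lncRNA the study followed up, ranked 264 by mean CPM among the Gm and Rik lncRNAs, with 2.13 CPM, and so was not among the 200. It read 5.04, 4.24 and 3.38 CPM in NCD RT, 1.72, 0.471 and 1.40 in NCD cold, 4.25, 3.19 and 1.04 in HFD RT and 0.405, 0.528 and 0.629 in HFD cold. In the cold it fell by 2.39 ± 0.54 on HFD (log2, SE, edgeR adjusted p = 0.0172), and the difference on NCD was -1.80 ± 0.51 (adjusted p = 0.0574), with no overlap of the groups on either diet. Gm17116, just inside the abundance limit, had 36.4% of its CPM in HFD cold replicate 1 (12.2 CPM), as Gm12840 had 68.0%, and was between 0.0581 and 0.684 CPM in NCD RT.

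The imprinted B830012L14Rik and A330076H08Rik were at 0.702 and 0.570 CPM and outside the 200. The microRNA host C130071C03Rik was at 0.0431 CPM. Gm42418, 1500011K16Rik and 2610203C20Rik were not analysed here.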
